A study of Mus musculus with 16 samples.

Results

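The assay, 4C-seq (circularised chromosome conformation capture read by sequencing), lists the places in the genome that were crosslinked near one chosen locus, the viewpoint. The viewpoint described here is the bidirectional promoter shared by Pole and Pxmp2 on mouse chromosome 5. All 8 libraries whose titles name Pole were taken, out of 16 libraries in the series. They were 4 libraries from Rb1+/+ and 4 from Rb1L/L mouse embryonic fibroblasts (MEFs), which are primary cells grown from embryos. The cells came from E13.5 embryos and were proliferating at passage 4, and no treatment is recorded for either genotype. Each genotype has replicates 1 to 4, and cultures of the 2 genotypes with the same number share a MEF pair identifier. What the cultures of a pair share beyond the identifier is not stated, and p-values therefore measure only the spread between these cultures. The question was whether the promoter's contacts along its own chromosome (cis) and on the other autosomes (trans) differed between the genotypes.

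Pole encodes the catalytic subunit of DNA polymerase epsilon, which copies DNA in S phase, and Pxmp2 encodes a channel protein of the peroxisomal membrane. Such genes lie head to head and are transcribed in opposite directions from one short promoter. Rb1 encodes pRb, which holds E2F transcription factors in check and restrains entry into S phase. The L allele alters the cleft through which pRb binds proteins with an LXCXE motif, and the series title places condensin II, a complex that compacts chromosomes, at promoters through pRb. In interphase, contacts usually thin out with distance along a chromosome, far contacts gather in blocks of like chromatin, and contacts with other chromosomes are the rarest. In the RefSeq gene order of the GRCm38.p6 assembly, the promoter's neighbours on the Pxmp2 side are Pgam5, a mitochondrial phosphatase, then Ankle2, a nuclear envelope protein, Golga3, a Golgi protein, and Chfr, a mitotic checkpoint ubiquitin ligase. On the Pole side they are P2rx2, an ATP-gated ion channel, then Lrcol1, Fbrsl1, Galnt9 and Noc4l.

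The deposited lists are of HindIII sites, each listed or not, and every listed site lay inside a called region of its library. Densities per Mb below therefore count listed sites and do not measure contact frequency. Without read counts the depth is unknown, and the number of listed sites is the only measure of yield. Rb1+/+ replicates 1 to 4 listed 7925, 9569, 15828 and 17522 sites, and Rb1L/L replicates 1 to 4 listed 6485, 15664, 16989 and 14103 sites. The yields of the genotypes overlapped, and replicate 1 was the smallest list in both. Rb1L/L replicate 1, the shortest list, also had the lowest profile correlations. Its cis profile over 1-Mb windows correlated with those of the other libraries at r = 0.557 to 0.704 (98 windows), whereas the pairs of libraries without it reached r = 0.646 to 0.885. These ranges overlap, and whether the short list accounts for the lower values was not tested. Some of the main results and domains are therefore given with and without it. Sites on chromosome X, 92 to 466 per library, were left out.

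More than 50% of the autosomal sites lay on chromosome 5 in 7 of 8 libraries. The cis share was 61.5%, 58.0%, 55.6% and 51.1% in Rb1+/+ replicates 1 to 4, and 60.6%, 51.1%, 48.6% and 55.3% in Rb1L/L replicates 1 to 4. The ranges overlapped, with 56.6% ± 4.35 (SD, n = 4) in Rb1+/+ and 53.9% ± 5.25 (SD, n = 4) in Rb1L/L. The difference of -2.67 points (95% interval -12.9 to 9.41) was within the spread between replicates (exact two-sided permutation test over 70 assignments, p = 0.371). The share was lower in Rb1L/L in 3 of 4 pairs and higher in pair 4. Leaving out 1 library gave differences from -4.89 points without Rb1L/L replicate 1 (exact permutation p = 0.143) to -0.891 without Rb1L/L replicate 3 (exact permutation p = 0.714). It was -1.02 points without Rb1+/+ replicate 1.

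The cis share followed the length of the list. It fell by 7.59 points for each doubling of the listed autosomal sites (r = -0.898 over the 8 libraries, given as a description). After this line was subtracted, Rb1L/L lay 2.32 points below Rb1+/+, a difference of -2.32 (95% interval -6.37 to 1.77, exact permutation p = 0.171). The differences within pairs 1 to 4 were then -2.998, -1.70, -6.37 and 1.77 points, so pair 4 again ran opposite to the rest. Rb1L/L replicate 4 decided the side of the threshold. Without it the difference was -3.24 points and the exact permutation p was 0.0286, the smallest that these libraries can give.

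**Figure D1:**
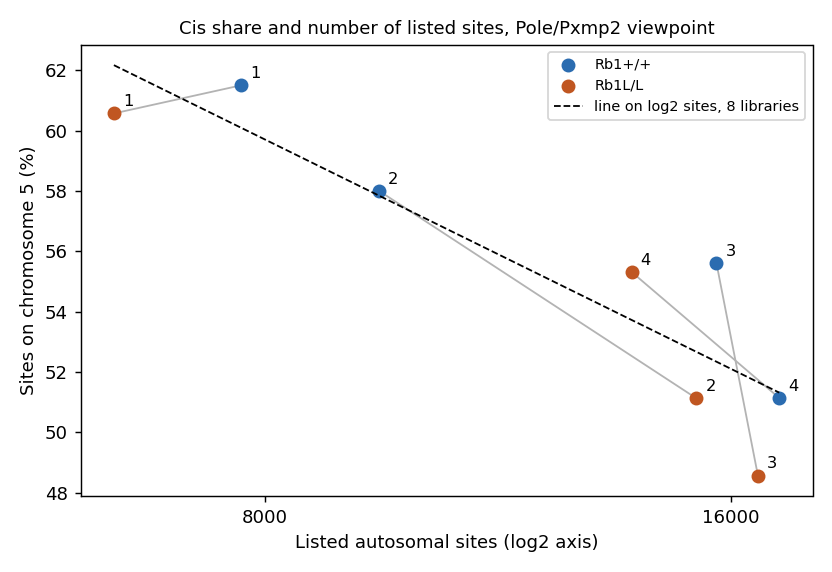
Percent of listed autosomal sites that lie on chromosome 5 (y axis) against the number of listed autosomal sites (x axis, log2 scale) in the 8 Pole/Pxmp2 libraries. Grey lines join the cultures of a pair, numbers are replicates, and the dashed line is the fit to all 8 libraries, which falls by 7.59 points per doubling of sites, with both genotypes on either side of it.

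The position of the viewpoint is not marked in the files. It was placed within an empty stretch of 2.61 Mb, chr5:109110988-111716060 (mm9), in which no library listed a site and into which the approximate position of the promoter falls. Each library alone left 2.61 to 2.66 Mb empty there. The first site beyond it on the telomeric side was listed in 8 of 8 libraries. Distances were measured from the middle of the stretch, which leaves 105.9 Mb of listed chromosome beyond its centromeric edge and 40.3 Mb beyond its telomeric edge. The promoter's contacts within that stretch thus cannot be read from these lists. The placement rests on general knowledge of the mouse genome, and distances carry its uncertainty.

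Listed sites thinned with distance in both genotypes, with no detectable difference in rate. Cis sites nearer than 2 Mb to the middle of the stretch fell in no distance bin. They are left out of the slopes and the binned densities below, and their share of cis sites varied between libraries. The slope of log2 site density on log2 distance, from bins that double from 2 Mb, was -0.333, -0.323, -0.365 and -0.319 in Rb1+/+ replicates 1 to 4. In Rb1L/L replicates 1 to 4 it was -0.392, -0.282, -0.274 and -0.356, a wider range that enclosed the Rb1+/+ values. The means were -0.335 ± 0.0209 and -0.326 ± 0.0574 (SD, n = 4 each), a difference of 0.00926 (95% interval -0.0727 to 0.0914, exact permutation p = 0.8). After allowing for the number of cis sites the difference was 0.0104 (exact permutation p = 0.771), with 2 pairs up and 2 down. Without Rb1L/L replicate 1 the difference, not adjusted for sites, was 0.0313 (exact permutation p = 0.229). It depended on where distance was measured from, at 0.0898 (exact permutation p = 0.114) from the nearer edge of the stretch.

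The decay was neither even nor alike on the 2 sides. Over all 8 libraries and both sides, the density per Mb per 1000 cis sites was 17.8 ± 1.59 (SD, n = 8) at 2 to 4 Mb and 6.04 ± 1.33 at 4 to 8 Mb. It then stood at 8.70 ± 0.683 at 8 to 16 Mb, 7.89 ± 0.436 at 16 to 32 Mb and 7.30 ± 0.317 at 32 to 64 Mb, so the listed density hardly fell across that range. Beyond 64 Mb, where only the centromeric arm of the measurement reaches, it was 3.29 ± 0.438. Centromeric slopes lay between -0.490 and -0.316 in the 8 libraries. Telomeric slopes lay between -0.247 and 0.208, on both sides of 0.

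On the telomeric side listed sites were sparse at 4 to 8 Mb, although every library listed some there. There the density was 13.6 ± 4.01 sites per Mb per 1000 cis sites (SD, n = 8) at 2 to 4 Mb, 3.29 ± 1.11 at 4 to 8 Mb and 9.40 ± 1.32 at 8 to 16 Mb. On the centromeric side the same bins held 22.1 ± 6.10, 8.80 ± 1.99 and 8.004 ± 1.53, with no such recovery. The telomeric 4 to 8 Mb bin held 3.63 ± 0.717 in Rb1+/+ and 2.95 ± 1.43 in Rb1L/L (SD, n = 4 each), lower in Rb1L/L in 3 of 4 pairs with overlapping ranges of 2.82 to 4.52 and 1.61 to 4.91. The median distance of a cis site was 27.8 ± 2.18 Mb in Rb1+/+ and 27.7 ± 2.66 Mb in Rb1L/L, a difference of -0.0654 Mb (95% interval -5.38 to 5.05, exact permutation p = 0.971).

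**Figure D2:**
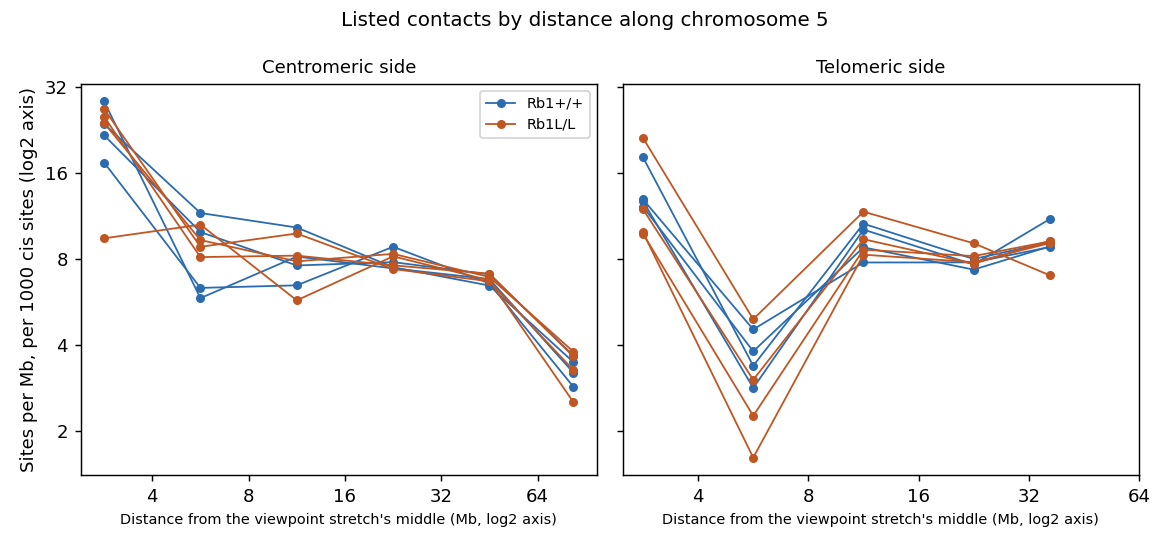
Listed sites per Mb, per 1000 cis sites (y axis, log2 scale), against distance from the middle of the viewpoint stretch (x axis, Mb, log2 scale; points at the geometric middle of each bin), with one line per library. The telomeric panel shows the low bin at 4 to 8 Mb, with a mean of 3.29 over the 8 libraries, between bins at 13.6 and 9.40.

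The layout of chromosome 5 was largely common to the 8 libraries. Merging the regions called in any library gave 50 cis domains, 33 centromeric and 17 telomeric of the viewpoint, with a median length of 1.498 Mb and a longest of 4.21 Mb. Every listed cis site lies in one of these domains by construction. Of the domains, 36 had a call over at least part of their extent in all 8 libraries and held 97.1% of all cis sites. Another 5 were called in a single library, 1 had calls only from Rb1+/+ and 4 only from Rb1L/L. The domains spanned by calls covered 81.5 Mb, of which 36.8 Mb (45.1%) was called in all 8 libraries and 88.1% in at least 1 library of each genotype. A mere 0.0199 Mb was called in all 4 Rb1+/+ and no Rb1L/L library, and 0 Mb in the reverse case.

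The amount of chromosome 5 called did not differ beyond the replicates. Regions numbered 56, 48, 49 and 54 in Rb1+/+ replicates 1 to 4 and 45, 55, 54 and 55 in Rb1L/L replicates 1 to 4, a mean difference of 0.500 (95% interval -11.0 to 7.00, exact permutation p = 0.943). The called length was 61.4 ± 9.53 Mb in Rb1+/+ and 61.1 ± 10.2 Mb in Rb1L/L (SD, n = 4 each; difference -0.280 Mb, 95% interval -25.2 to 16.3, exact permutation p = 1.00). Within that length the lists held 110.9 ± 17.9 and 109.8 ± 17.5 sites per Mb (difference -1.12, 95% interval -44.6 to 30.5, exact permutation p = 0.971). Length followed yield, at 16.2 Mb per doubling of autosomal sites (r = 0.984, 8 libraries, given as a description).

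**Figure D3:**
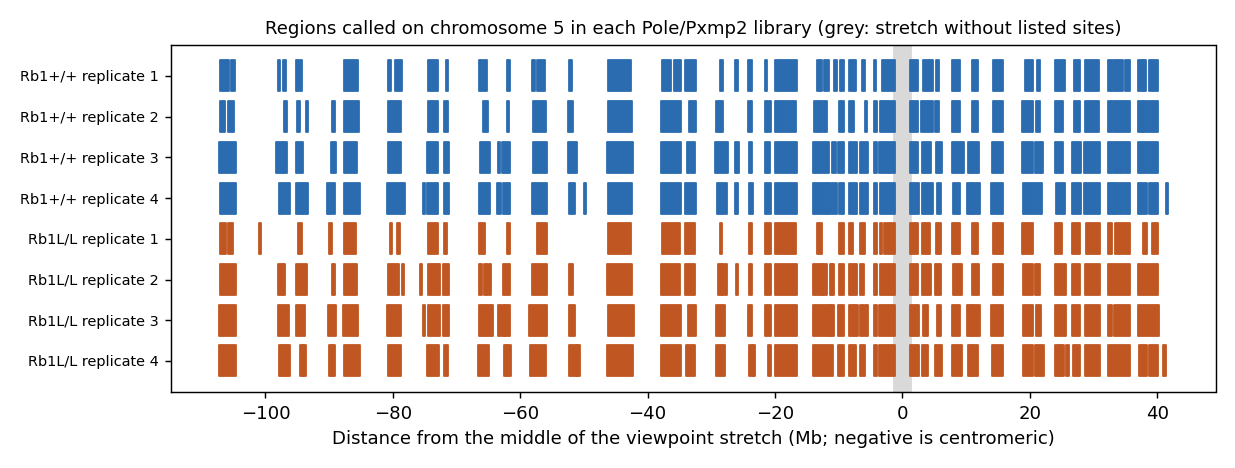
Regions called on chromosome 5 in each of the 8 libraries (rows), as distance from the middle of the viewpoint stretch in Mb (x axis), with the 2.61 Mb stretch without listed sites in grey. Most blocks line up down the rows in both genotypes, and Rb1L/L replicate 1 has the fewest regions, 45.

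The 6 domains with the largest shares held 38.7% of all cis sites, and the 2 largest were not those nearest the promoter. First came chr5:90402197-93834628, 18.3 Mb from the middle of the stretch on the centromeric side. It held 120.8, 94.4, 80.2 and 82.3 per 1000 cis sites in Rb1+/+ replicates 1 to 4 and 101.6, 95.2, 89.5 and 88.8 in Rb1L/L replicates 1 to 4. The Rb1L/L values fell within the Rb1+/+ range, and the log2 fold change was 0.01 (limma, 95% interval -0.28 to 0.30, adjusted p = 0.983). Second came chr5:64019836-68234701, 44.3 Mb away on the same side, with 80.0 ± 7.97 per 1000 in Rb1+/+ and 84.6 ± 8.73 in Rb1L/L (SD, n = 4 each). It was called as 1 unbroken region in every library.

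The remaining 4 included the domain that borders the viewpoint stretch on the centromeric side, chr5:106808173-109331952. It held 71.7, 79.9, 68.4 and 62.2 per 1000 in Rb1+/+ replicates 1 to 4 and 60.2, 72.1, 68.5 and 75.2 in Rb1L/L replicates 1 to 4. These values overlapped throughout, and the 95% interval of the log2 fold change was -0.27 to 0.21 (limma). The others were chr5:72452193-75711766 with a mean over the 8 libraries of 56.5 per 1000, chr5:138998862-141455436 with 44.2, and chr5:96378875-100122985 with 39.6. In the last of these, Rb1L/L replicate 1 held 16.0 per 1000 and the other libraries 27.4 to 60.7. On the telomeric border, chr5:111538228-113050546 held 30.3 ± 9.46 in Rb1+/+ and 30.1 ± 12.8 in Rb1L/L (SD, n = 4 each). In that domain both replicates numbered 1 were high, at 44.5 and 48.1 per 1000, and the other 6 libraries lay between 18.8 and 29.6.

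No cis domain passed the test of a difference between genotypes. Of 50 domains, 46 had at least 8 sites over the 8 libraries and were tested with limma on the log2 share of cis sites (0.5 was added to each site number). At a Benjamini-Hochberg adjusted p under 0.05, 0 domains (0%) were called, and at an unadjusted p under 0.05 limma found 1 (2.17%). The smallest adjusted p was 0.983 with yield left out and 0.657 with log2 listed sites as a covariate. The median log2 fold change was 0.01, and 24 of 46 domains had a 95% interval that lay within a 2-fold change in either direction. The width of those intervals varied greatly, with a median of 0.93 log2 units to either side. Over 1-Mb windows, 98 were tested, 0 were called (0%) and 3 (3.06%) had an unadjusted p under 0.05 in limma.

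**Figure D4:**
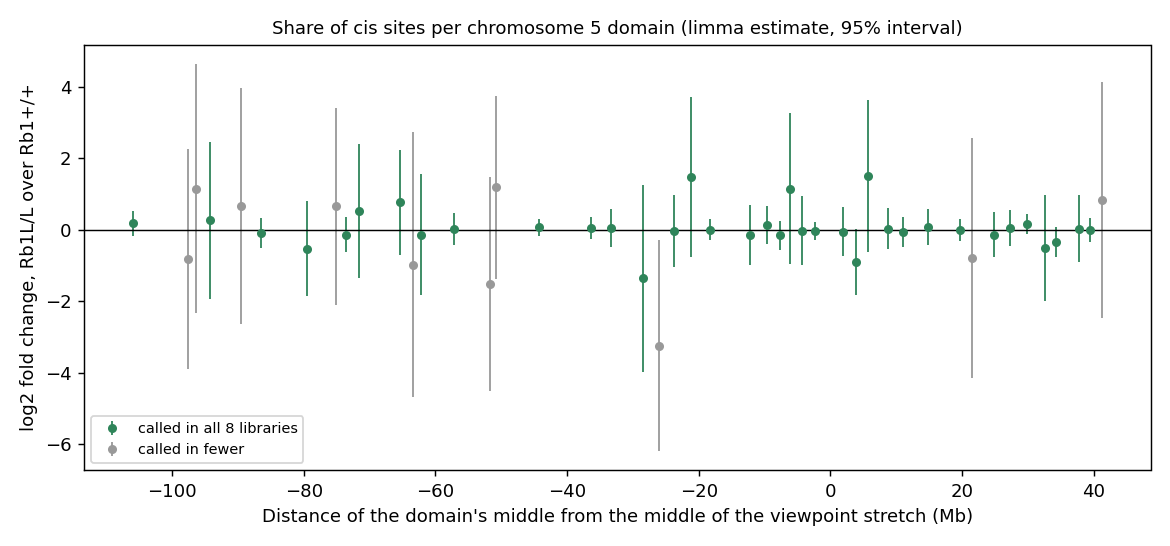
Log2 fold change of Rb1L/L over Rb1+/+ in the share of cis sites for the 46 tested domains (y axis; points are limma estimates, bars 95% intervals) against the distance of the domain's middle from the middle of the viewpoint stretch (x axis, Mb; negative is centromeric). Domains called in all 8 libraries (green) mostly lie near 0, and the widest bars belong to domains with few sites.

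Both domains beyond the telomeric border were among those with the smallest p-values, in opposite directions. In chr5:113338622-115298036, centred 3.90 Mb from the middle of the stretch, Rb1+/+ replicates 1 to 4 held 33.1, 21.1, 19.8 and 28.7 per 1000 cis sites. Rb1L/L replicates 1 to 4 held 29.5, 13.6, 6.80 and 11.5. The value was lower in Rb1L/L in 4 of 4 pairs, although Rb1L/L replicate 1 lay inside the Rb1+/+ range. The log2 fold change was -0.91 ± 0.41 (SE, limma adjusted p = 0.983). Without Rb1L/L replicate 1 it was -1.29, with the adjusted p at 0.105 (limma).

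In the next domain outward, chr5:115588676-116609374, Rb1+/+ replicates 1 to 4 held 0.422, 3.09, 9.99 and 5.12 per 1000 and Rb1L/L replicates 1 to 4 held 14.7, 4.76, 6.43 and 12.1. The groups overlapped, and the log2 fold change of 1.504 ± 0.95 (SE, limma adjusted p = 0.983) rested on Rb1+/+ replicate 1, without which it was 0.66. Farther away, the domain with the smallest p of all was chr5:84165020-84747462, 26.0 Mb to the centromeric side. It was called in 3 Rb1+/+ libraries and 1 Rb1L/L library and held 14, 0, 23 and 9 sites in Rb1+/+ replicates 1 to 4 against 0, 1, 0 and 0 in Rb1L/L (limma adjusted p = 0.983). These 47 sites are 0.0843% of cis sites in the mean of the 8 libraries. Next by p among those lower in Rb1L/L was chr5:143420134-146102755 (log2 fold change -0.35 ± 0.18). Among those higher were chr5:88863726-89778480 (1.49 ± 1.00, and 0.48 without Rb1+/+ replicate 1) and chr5:138998862-141455436 (0.16 ± 0.13, and 0.06 without Rb1L/L replicate 1). Errors there are SE, and the limma adjusted p was 0.983 for each.

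The outer edge of chr5:113338622-115298036 lay closer to the promoter in every Rb1L/L library. Its called end was at 115237058, 115270471, 114872067 and 115298036 in Rb1+/+ replicates 1 to 4 and at 114766943, 114858498, 114384101 and 114359562 in Rb1L/L replicates 1 to 4. The groups did not overlap, and the called length was 1.33 to 1.93 Mb in Rb1+/+ and 0.7997 to 1.29 Mb in Rb1L/L. The end lay 577 kb nearer in Rb1L/L on average, which is -577 kb against SDs of 199.8 and 257 kb (n = 4 each). This comparison was added after the values were seen. It was run on the 32 edges of the 16 domains called as 1 piece in every library, and 2 edges (6.25%) had an unadjusted exact permutation p of 0.0286, the smallest 4 against 4 allows, with an adjusted p of 0.457. For the first of them the exact permutation p was 0.0571 on leaving out any library other than Rb1+/+ replicate 3. The other of the 2 was the end of chr5:142646901-143415287, at -34.9 kb. Over the 32 edges the median SD across the 8 libraries was 69.3 kb and the median size of the difference was 33.1 kb.

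Single cis sites recurred between libraries, and few separated the genotypes. Of 13982 different cis sites, 79.5% were listed in 2 or more libraries and 1254 (8.97%) in all 8. Sites listed in every Rb1+/+ library but no Rb1L/L library numbered 18 (0.129%), and the reverse numbered 10 (0.0715%). Cis profiles over 98 1-Mb windows correlated at a median r of 0.745 between the genotypes of a pair, 0.739 between replicates of a genotype and 0.725 between genotypes of different pairs. These are descriptions over windows of one chromosome, and the 3 medians lay well inside the range of 0.557 to 0.885 over all pairs of libraries.

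Listed trans sites recurred far less often than listed cis sites. Called regions also held fewer sites per Mb in trans (10.97 in Rb1+/+ and 11.8 in Rb1L/L) than in cis (110.9 and 109.8). More overlap is thus likely in cis from density alone, and this was not allowed for. Of 38449 different trans sites on the other 18 autosomes, 17.9% were listed in 2 or more libraries and 1 site in all 8. Trans sites listed in all 4 Rb1+/+ and no Rb1L/L library numbered 1 (0.0026%), and the reverse numbered 0 (0%). The smaller list of a pair of libraries shared 3.81% to 11.9% of its trans sites with the larger, against 62.1% to 82.1% for cis. Profiles over 312 5-Mb windows correlated at a median r of 0.387 between the genotypes of a pair, 0.353 within a genotype and 0.338 between genotypes of different pairs, again as a description. These windows differ in width from those used in cis, so the 2 sets of correlations are not directly comparable. Called trans regions merged into 255 domains covering 1155 Mb. Only 37.2 Mb (3.22%) was called in all 8 libraries, while 25.1% was called in 1 library alone.

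The extent of the trans lists followed yield, and no difference between genotypes exceeded the replicate spread. Called trans length was 284, 374, 662 and 683 Mb in Rb1+/+ replicates 1 to 4 and 236, 543, 679 and 602 Mb in Rb1L/L replicates 1 to 4. The difference was 14.3 Mb (95% interval -446 to 395, exact permutation p = 0.971), beside a rise of 325 Mb per doubling of autosomal sites (r = 0.981, 8 libraries). Within called regions there were 10.97 ± 0.888 trans sites per Mb in Rb1+/+ and 11.8 ± 1.62 in Rb1L/L (SD, n = 4 each; difference 0.825, 95% interval -2.06 to 3.21, exact permutation p = 0.371). When every library was thinned to the 2519 trans sites of the smallest, 366 ± 151 and 375 ± 135 1-Mb windows held a site (difference 9.31, 95% interval -316 to 287, exact permutation p = 0.971). The thinned values still ran from 183 in the shortest list to 499 in the longest, so they still rose with list length.

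The trans sites were spread unevenly over the length of chromosomes, and the HindIII sites available on each were not counted. Chromosome 7 had the highest density, 0.740 ± 0.124 sites per Mb per 1000 trans sites (SD, n = 8), followed by chromosome 9 with 0.590 ± 0.105 and chromosome 17 with 0.580 ± 0.134. Chromosome 4 had 0.580 ± 0.116, and the densities of 9, 17 and 4 did not differ beyond their spread. At the bottom were chromosomes 19, 18 and 1, with chromosome 19 at 0.317 and chromosome 1 at 0.325 ± 0.0379, so that the highest density was 2.33 times the lowest.

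No chromosome passed the test of a difference between genotypes. With limma on log2 shares, 0 of 18 chromosomes (0%) were called and 0 (0%) had an unadjusted p under 0.05. Chromosome 15 had the smallest p. It took 4.48%, 3.37%, 4.72% and 4.98% of trans sites in Rb1+/+ replicates 1 to 4 and 3.26%, 2.96%, 3.6% and 3.6% in Rb1L/L replicates 1 to 4. It was lower in Rb1L/L in 4 of 4 pairs, with Rb1+/+ replicate 2 inside the Rb1L/L range (log2 fold change -0.38 ± 0.19 SE, limma adjusted p = 0.873). Chromosome 7 took 9.30% ± 1.89 in Rb1+/+ and 10.7% ± 1.28 in Rb1L/L (SD, n = 4 each), higher in 4 of 4 pairs (limma adjusted p = 0.900). Chromosome 13 was also higher in 4 of 4 pairs (log2 fold change 0.36 ± 0.26 SE, limma adjusted p = 0.900), and chromosome 16 was lower in 4 of 4 (-0.34 ± 0.19 SE, limma adjusted p = 0.873). With the replicate number as a block, limma called 0 chromosomes, 2 were lower in Rb1L/L at an unadjusted p under 0.05, and the smallest adjusted p was 0.381. With log2 listed sites as a covariate, 0 chromosomes were called, 4 had an unadjusted p under 0.05 in limma (1 higher and 3 lower in Rb1L/L), and the smallest adjusted p was 0.217.

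**Figure D5:**
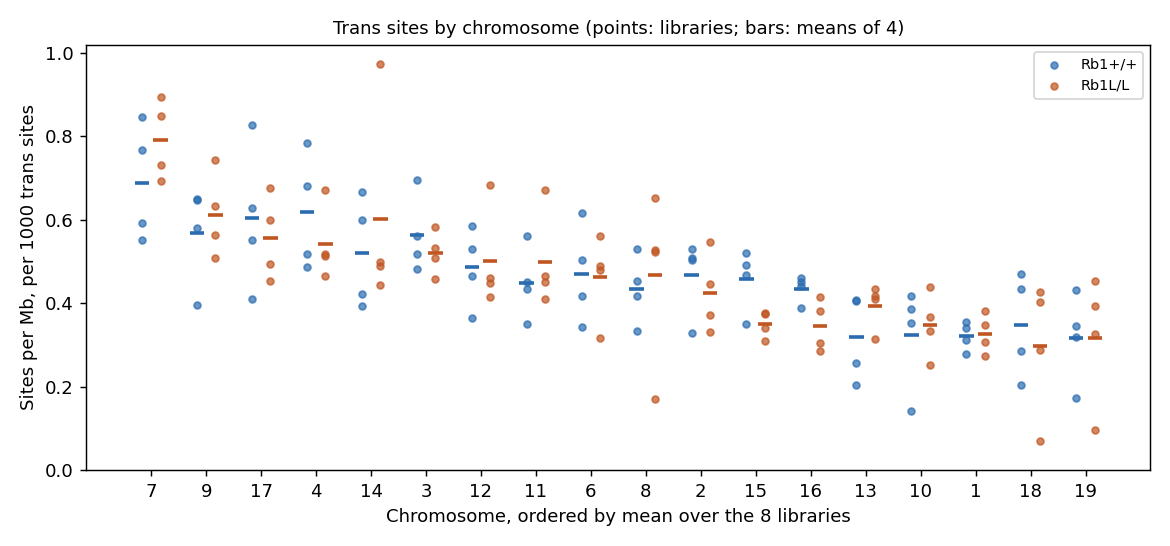
Trans sites per Mb, per 1000 trans sites (y axis), on the 18 other autosomes, ordered by mean density (x axis). Points are libraries and bars the means of the 4 libraries of a genotype; chromosome 7 is highest at a mean of 0.740, and the genotypes overlap on all 18 chromosomes.

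Within chromosomes the trans sites leaned towards the distal end. Each autosome was cut into 5 equal parts from its first to its last listed position, counted from the low coordinates, which are the centromeric end of these mouse chromosomes. From centromere to telomere the parts held 10.2%, 12.0%, 16.2%, 23.4% and 38.2% of trans sites in the mean of 8 libraries. An even spread over length would give 20% each, but the HindIII sites available in each part were not counted. The most distal part held 39.1% ± 1.86 in Rb1+/+ and 37.3% ± 3.24 in Rb1L/L (SD, n = 4 each), and the 8 libraries ran from 33.8% to 41.4%. The difference of -1.80 points was within the replicate spread (95% interval -6.87 to 4.97, exact permutation p = 0.371). Chromosomes differed in this lean, from 60.3% ± 19.9 in the distal part of chromosome 4 and 59.98% ± 19.5 on chromosome 8 to 20.6% ± 11.6 on chromosome 6 and 12.4% ± 8.68 on chromosome 18, which lay below an even share (SD, n = 8 libraries).

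The lean was present at the other promoter of the series as well. In libraries of the Cdca3/Usp5 promoter, made from cultures with the same pair identifiers, the most distal part held 36.6% ± 1.74, against 39.4% ± 2.58 for Pole/Pxmp2 over the same 17 chromosomes (SD, n = 8 each). Pole/Pxmp2 was higher in 7 of 8 cultures, if libraries of the same genotype and pair identifier are taken as the same culture. The mean difference was 2.73 points (exact two-sided sign-flip test, p = 0.0391), with no allowance for list length. That test, like the division into parts, was chosen after the values were seen. Of the 37.2 Mb of trans sequence called in all 8 Pole/Pxmp2 libraries, 91.0% was also called in all 8 Cdca3/Usp5 libraries, whose own common part was 332 Mb or 16.7% of the span of those chromosomes. In turn, 10.2% of that common part lay in the Pole/Pxmp2 one.

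Of the 255 merged trans domains, 28 had a call in all 8 libraries and held 42.2% of trans sites. Their extent is the union of the calls, and each library called only part of it. The one with the largest share was chr4:122113189-142547762, with 80.8, 33.7, 33.1 and 28.9 per 1000 trans sites in Rb1+/+ replicates 1 to 4 and 36.1, 11.4, 25.0 and 43.5 in Rb1L/L replicates 1 to 4. The groups overlapped, and Rb1+/+ replicate 1 stood high. Next was chr7:131566383-144188315, with 22.2 ± 6.13 in Rb1+/+ and 35.0 ± 22.7 in Rb1L/L (SD, n = 4 each), where Rb1L/L replicate 1 alone held 67.9. The mean over the libraries was 28.6 with it and 23.0 without it. After it came chr8:119031259-131670630, with 26.1 ± 2.78 and 18.8 ± 10.3, where Rb1L/L replicate 1 held 3.57 and the other 7 libraries 22.1 to 30.2. The mean over the libraries was 22.5 with it and 25.2 without it. The next 5 by share were chr9:52337826-73924713, chr17:22915472-36913387, chr14:54056837-71742834, chr12:105152157-115594004 and chr6:27576617-40409010, with means over 8 libraries of 22.2, 18.9, 18.7, 16.9 and 16.9 per 1000.

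No trans domain was called either. Limma tested 219 of the 255 domains, called 0 (0%) at an adjusted p under 0.05, and found 6 (2.74%) at an unadjusted p under 0.05, 5 higher and 1 lower in Rb1L/L. The smallest adjusted p was 0.906 with all libraries and 0.476 without Rb1L/L replicate 1 (limma). The median 95% interval reached 3.20 log2 units to either side, and 0 domains had an interval within a 2-fold change. None of the tested trans domains could thus be limited to a change of that size with these lists. The genotypes did not overlap in 4 domains with Rb1L/L above (1.83%) and in 1 with Rb1+/+ above (0.457%).

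The trans domain with the smallest p was chr14:98111509-103231814. It held 0, 0, 0 and 6 sites in Rb1+/+ replicates 1 to 4 and 28, 57, 40 and 47 in Rb1L/L replicates 1 to 4, with no overlap (log2 fold change 5.34 ± 2.09 SE, limma adjusted p = 0.906). Second was chr8:9960977-15217644, with 0, 1, 0 and 12 sites in Rb1+/+ and 42, 37, 62 and 41 in Rb1L/L replicates 1 to 4 (4.81 ± 2.05 SE, limma adjusted p = 0.906). Both fold changes depend on the 0.5 added to site numbers. In chr2:124555725-134766449 the share was higher in Rb1L/L in 4 of 4 pairs, at 6.58 ± 7.31 and 18.4 ± 12.4 per 1000 (SD, n = 4 each), with overlap, and the log2 fold change of 2.96 was 1.76 without Rb1+/+ replicate 1.

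In the 3 domains with the smallest p among those lower in Rb1L/L, Rb1L/L replicate 1 listed 0 sites. In chr4:146459738-155627021, Rb1+/+ replicates 1 to 4 held 28.9, 24.6, 15.4 and 13.2 per 1000 and Rb1L/L replicates 1 to 4 held 0, 17.4, 16.1 and 15.4. The log2 fold change was -1.85 with that library and -0.26 without it. In chr3:86310130-91141786 it was -2.67 and -1.55, and Rb1L/L replicate 2 was also low there, at 1.08 per 1000 beside 7.98 to 22.4 in Rb1+/+. In chr16:28585359-36651014 it was -3.02 and -2.10, with 2.15 and 0.467 per 1000 in Rb1L/L replicates 2 and 3 beside 8.21 to 14.5 in Rb1+/+. The limma adjusted p of the 3 was 0.906 with all libraries and 0.793 to 0.881 without that library.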

How the data were processed

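For each library the authors deposited a list of HindIII sites, mostly as 6 bp intervals, and a list of called regions without scores. Coordinates are mm9, per the submitters' processing notes. Each site carries a deposited p-value or q-value below 0.05; which of these it is was not settled, and it served only as a filter (below 0.01) in an alternative. Which aligner and caller made the lists is not given in the sources used here, nor are the cutoffs. A list cut at a threshold lengthens with depth, so list length was addressed by residuals on log2 sites, by thinning, and as a limma covariate. Thinning did not remove the dependence, since the thinned trans windows still rose with list length. Single values were compared by exact two-sided permutation over 70 assignments (smallest p 0.0286), with 95% intervals from inverting the test. Domains are regions merged over the 8 libraries. Domains and windows with at least 8 sites were tested with limma 3.58.1 (R 4.3.3; trend for domains and windows) on log2 of sites plus 0.5 per 1000 cis or trans sites, with Benjamini-Hochberg adjustment. Summaries used Python 3.11.15, pandas 2.3.3 and numpy 2.4.6.

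Regions were named by rule: the 6 largest cis domains, the nearest on each side of the stretch, the 3 smallest p-values in each direction in cis and in trans, the 8 largest trans domains called in all 8 libraries, and the 3 densest and 3 sparsest chromosomes with the one of smallest p. Others were named after their values were seen: chromosome 4 beside the densest, chromosomes 7, 13 and 16 in the genotype comparison, the distal shares of single chromosomes and the second edge that moved. The members and lists were chosen with earlier results of these data known. Domain edges, recurrence of sites, position along chromosomes and the overlap with Cdca3/Usp5 were added after the data were seen. Regions on chromosome 18 are not named here. mm9 gene annotation was not used here.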

Additional observations from a re-analysis of the deposited data

Results flagged for a closer look

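In groups of 4 libraries, 8 of 88 groups (9.09%) had a library far from the other 3, by Dixon's 95% criterion. Chance gives about 1 in 20 groups where groups are not selected. Many of these groups were regions picked from the same data, and some values are related, so the rates cannot be compared directly. Rb1L/L replicate 1 had 45 cis regions, and the other Rb1L/L libraries had 54 to 55. Rb1+/+ replicate 4 had 12.3 trans sites per Mb called, and the others of its group 10.5 to 10.6. In chr5:111538228-113050546, on the telomeric border of the viewpoint stretch, Rb1+/+ replicate 1 held 44.5 per 1000 cis sites beside 25.1 to 25.8. In chr5:84165020-84747462, Rb1L/L replicate 2 held 0.129 per 1000, which is 1 site, and the others 0. In chr14:98111509-103231814, Rb1+/+ replicate 4 held 0.714 per 1000 trans sites, and the others 0. In chr4:146459738-155627021, Rb1L/L replicate 1 held 0 beside 15.4 to 17.4. In chr16:28585359-36651014, Rb1L/L replicate 4 held 14.1 beside 0 to 2.15. In chr4:122113189-142547762, Rb1+/+ replicate 1 held 80.8 beside 28.9 to 33.7.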

How the results depend on the processing

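Of 497 alternatives over 45 results, 456 were labelled unchanged, and none called a domain, window or chromosome in limma. For differences between genotypes, unchanged means the same direction and side of the threshold. For the largest and nearest domains, the alternatives were means over both genotypes on leaving out 1 library, labelled unchanged if they moved by less than the SD. Leaving out 1 of 8 values cannot move a mean that far, so those labels were fixed in advance and say nothing about stability. Reversals, 32 in all, fell on differences whose intervals span 0, and 29 came on leaving out 1 library. Leaving out each library in turn, the difference ranged from -0.00807 to 0.0313 for the decay slope and from -0.00703 to 0.0295 for the slope given the number of sites; from the nearer edge of the stretch these were 0.0898 and 0.0862, and on the telomeric side alone 0.0580 and 0.0636. For the median cis distance it ranged from -1.14 to 1.21 Mb, for cis regions from -0.750 to 2.92, for cis length from -3.45 to 4.74 Mb, and for cis sites per Mb from -7.63 to 7.50. For trans length it ranged from -57.9 to 107 Mb, and for thinned trans windows from -44 to 75.7. The cis share difference ranged from -4.89 to -0.891 points and was -1.05 with deposited values below 0.01. For the cis share given the number of sites it ranged from -3.24 to -1.49 points. Other reversals were trans length as residuals on log2 sites (-0.349 Mb), and, with deposited values below 0.01, trans sites per Mb (-0.210) and thinned trans windows (-1.32). The called end of chr5:113338622-115298036 moved by -676 to -500 kb on leaving out 1 library, with the permutation p at 0.0571 for 7 of 8. The main tests did not use the replicate numbers as a block, and what a MEF pair shares is not stated. Deviations of same-numbered libraries correlated at 0.0463 to 0.314 in cis and 0.00551 to 0.216 in trans, all above 0. Libraries that differed in both genotype and number correlated at -0.352 to 0.315 in cis and -0.143 to 0.150 in trans. Not every library correlated best with its own number. With the replicate block, the cis share differed by -2.67 points (exact sign-flip p = 0.375, smallest possible 0.125). Cis domains then had a smallest limma adjusted p of 0.327 with 0 called. The end of chr5:113338622-115298036 (-577 kb) had an exact sign-flip p of 0.125. At an unadjusted limma p under 0.05 the block gave 2 chromosomes (0 without it) and 2 cis windows (3 without it). For trans domains it gave 6 higher and 1 lower in Rb1L/L (5 and 1 without it). The block changed no call at an adjusted p under 0.05. Depth is unknown, and list length is the only measure of it.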
